A study of Mus musculus with 6 samples.

Results

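Toll-like receptors and the proteins that fold, carry or signal for them were followed by their messenger RNA in lung B cells of 5xFAD and wild-type (WT) mice. The 10 genes were taken by symbol from the deposited table, which holds 22481 genes after rows that share a symbol were summed: the receptors Tlr1, Tlr2, Tlr4, Tlr7 and Tlr9, the receptor homolog Cd180, the partners Ly86 and Ly96, the transport chaperone Unc93b1 and the adaptor Myd88. All 10 symbols matched 1 row each. The comparison was of 3 samples of 5xFAD mice with 3 samples of WT mice, all C57BL/6 and 3 months old. Mice of the 5xFAD line are a model of inherited Alzheimer's disease in which the neuronal Thy1 promoter drives mutant human transgenes, including APP. Lung B cells were enriched on magnetic columns and frozen before their total RNA was extracted, depleted of ribosomal RNA and made into stranded libraries. Nothing in the labels ties a sample to its own animal, and p-values therefore describe the variation among these 6 samples, part of which may be technical.

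Toll-like receptors recognise conserved molecules of microbes and, in endosomes, nucleic acids. TLR1 pairs with TLR2 at the cell surface to bind bacterial lipopeptides, TLR4 binds lipopolysaccharide together with MD-2 (the product of Ly96), TLR7 binds single-stranded RNA and TLR9 binds unmethylated CpG DNA. CD180, also called RP105, resembles TLR4 outside the cell but lacks its signalling domain, is held at the surface by MD-1 (the product of Ly86), and is known as a B cell activating receptor. UNC93B1 carries TLR7 and TLR9 to endosomes, and MYD88 links the receptors of this group to the IRAK kinases.

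The libraries were shallow, and the fraction was not pure. Estimated counts summed to between 628581 and 782297 per library, and the Lars2 gene took 37.5% to 45.7% of them. Without Lars2 the sums were 433338, 466345 and 423160 in 5xFAD libraries, against 402532, 389283 and 341461 in WT libraries. Genes detected in estimated counts numbered 10490, 11780 and 11162 in 5xFAD and 9170, 10381 and 7929 in WT. Each WT library was thus lower than each 5xFAD library in both. The part of this in the members' values was not tested. The 10 genes together held between 281 and 566 estimated counts per library. Cd79a, which encodes a signalling chain of the B cell receptor, was present in every library, at 109, 158 and 97.4 FPKM in 5xFAD and at 92.6, 55.5 and 74.1 FPKM in WT. FPKM scales fragments by transcript length and by the depth of the library. Of the marker genes given further on, Chi3l3 and Csf1r were chosen after their values were seen. Markers of endothelium, myeloid cells, airway epithelium and fibroblasts were also present. In such bulk samples fewer cells of a type and less RNA per cell cannot be told apart. Mouse App, whose reads need not separate it from the human transgene, stood at 30.9, 40.9 and 43.6 FPKM in 5xFAD and at 27.8, 52.4 and 33.8 FPKM in WT, so the genotypes overlapped and this value does not check the labels.

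Start regions are shown for the members whose FPKM values did not overlap between genotypes, and for Tlr9. Each is 250 bases before and 50 bases after a RefSeq transcription start on GRCm38.p6, written 5′ to 3′ on the strand of the gene. For 6 of the 10 genes the RefSeq table gave such a window; Tlr4, Tlr7, Ly96 and Unc93b1 had none. Of a gene's windows, the nearest to the start of the deposited locus was taken. Capitals mark matches on either strand to 4 motifs: the octamer ATGCAAAT bound by OCT factors, the core GAGGAA of PU.1 sites, the paired interferon regulatory factor motif (GAAA, any pair of bases, GAAA), and a form of the NF-kB site (GGGA, any pair of bases, TTCC).
Tlr1 (chr5:64932650-64932949, minus strand): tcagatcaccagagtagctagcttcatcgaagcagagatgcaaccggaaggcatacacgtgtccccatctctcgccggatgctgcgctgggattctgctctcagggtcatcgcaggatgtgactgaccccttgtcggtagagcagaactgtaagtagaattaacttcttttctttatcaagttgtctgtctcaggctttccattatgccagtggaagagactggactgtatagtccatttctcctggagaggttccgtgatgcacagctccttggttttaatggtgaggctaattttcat
Ly86 (chr13:37345095-37345394, plus strand): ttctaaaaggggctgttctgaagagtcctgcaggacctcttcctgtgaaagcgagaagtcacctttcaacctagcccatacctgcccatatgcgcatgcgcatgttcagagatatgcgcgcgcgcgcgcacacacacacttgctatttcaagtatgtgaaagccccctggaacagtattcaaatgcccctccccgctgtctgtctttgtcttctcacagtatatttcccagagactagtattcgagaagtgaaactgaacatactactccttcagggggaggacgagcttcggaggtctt
Tlr2 (chr3:83841559-83841858, minus strand): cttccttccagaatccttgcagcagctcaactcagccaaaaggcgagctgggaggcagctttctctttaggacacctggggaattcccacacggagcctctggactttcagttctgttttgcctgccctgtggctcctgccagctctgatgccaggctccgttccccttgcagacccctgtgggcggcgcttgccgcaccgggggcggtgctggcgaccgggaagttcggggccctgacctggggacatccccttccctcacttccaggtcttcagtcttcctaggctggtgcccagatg
Tlr9 (chr9:106222348-106222647, plus strand): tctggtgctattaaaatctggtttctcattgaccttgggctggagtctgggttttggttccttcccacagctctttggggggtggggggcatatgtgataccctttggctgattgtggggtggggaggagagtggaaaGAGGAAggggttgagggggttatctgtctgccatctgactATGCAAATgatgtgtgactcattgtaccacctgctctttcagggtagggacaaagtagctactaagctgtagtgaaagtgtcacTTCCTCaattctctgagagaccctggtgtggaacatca

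The Tlr9 window held the octamer from base -72 to -65 relative to the start site, and GAGGAA on the plus strand at -112 to -107 and on the minus strand at 12 to 17. Among all 32851 windows of this length, 1.74% held the octamer, 28.3% GAGGAA, 3.44% the paired motif and 1.47% the NF-kB form. The Tlr1, Ly86 and Tlr2 windows held no match to these letters, nor did that of Cd180. The Myd88 window held the paired motif at -40 to -31. Matches overlapped no other motif, and they describe letters only. Other forms of these sites, including of the NF-kB site, were not searched for, so a window without a match may still hold one.

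None of the 9 tested members passed the test over all genes. Across 9651 genes that averaged 1 FPKM or more, edgeR's quasi-likelihood test with Benjamini-Hochberg adjustment called 11 genes at an adjusted p under 0.05, or 0.114%, and 0 members. At an unadjusted p under 0.05, Tlr1, Tlr7 and Ly86 were higher in 5xFAD (3 of 9 members, beside 8.46% of all tested genes) and 0 were lower (beside 3.55%), or 12.0% of all tested genes in both directions. That number of members was 0 without 5xFAD replicate 1 or without WT replicate 1, 1 without either replicate 2 and 2 without either replicate 3. DESeq2 and limma on log2(FPKM + 1) also called 0 members, each with 3 at an unadjusted p under 0.05. The median log2 fold change of the tested members was 0.63, beside 0.11 for all tested genes, with 7 of 9 above 0. In log2(FPKM + 1) the median member differed by 0.60, beside 0.24 for all tested genes. FPKM values did not overlap between genotypes for 3 members higher in 5xFAD, Tlr1, Tlr7 and Ly86 (beside 13.0% of all tested genes), and for 1 lower, Tlr2 (beside 4.42%). Tlr7 passed the expression filter through its 5xFAD libraries, since its WT mean was 0.939 FPKM. In CPM, counts scaled by library size and TMM factors, 4 members lay higher in 5xFAD without overlap, Tlr1, Tlr7, Cd180 and Unc93b1 (beside 12.4% of all tested genes), and 1 lower, Tlr2 (beside 5.88%). Both directions together held 4 of 9 members in FPKM (beside 17.4%) and 5 of 9 in CPM (beside 18.3%).

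**Figure D1:**
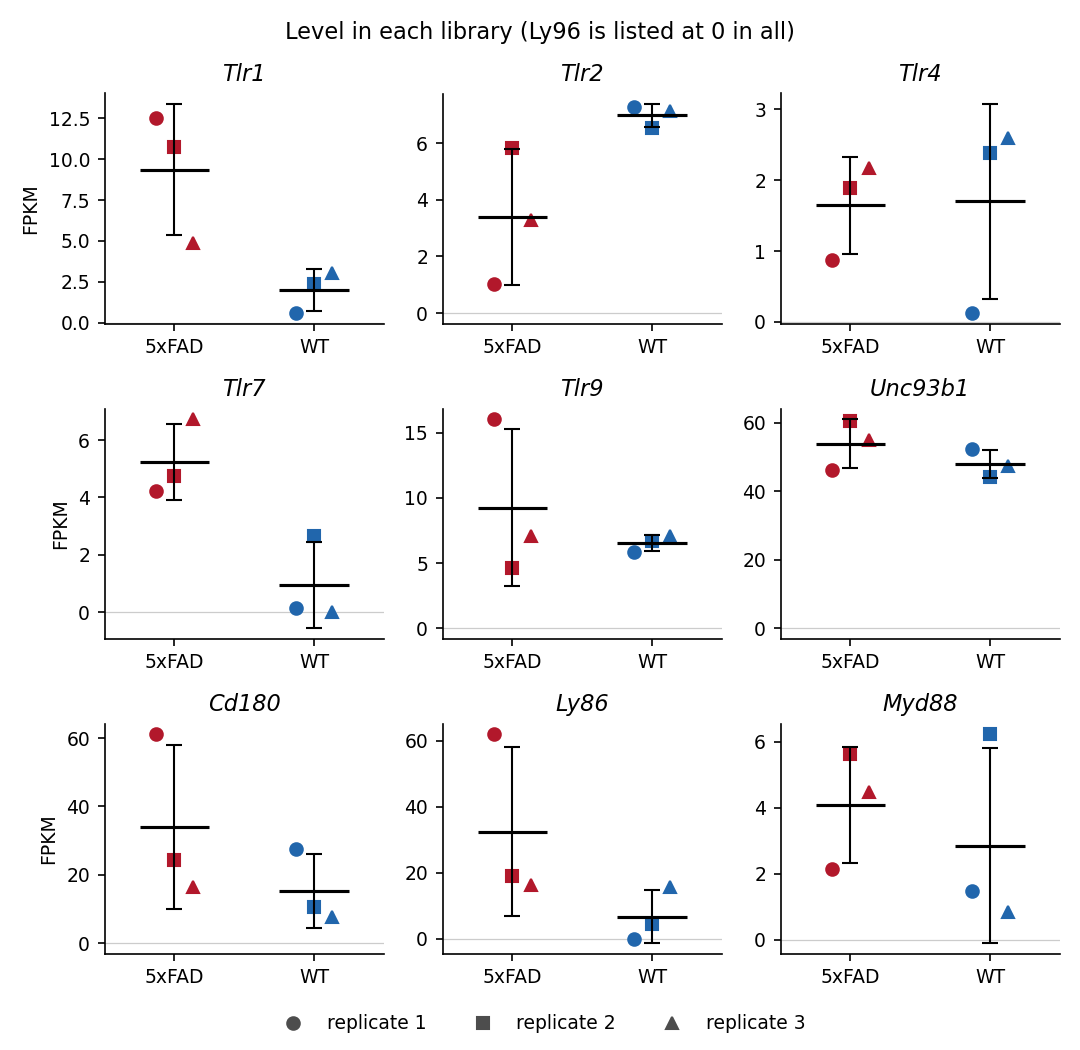
FPKM of 9 genes (vertical axes from 0, 1 scale per panel) in 5xFAD and WT libraries; symbols mark replicate numbers, and bars the mean and SD of 3 libraries. Every 5xFAD library lies above every WT library for Tlr1, Tlr7 and Ly86 and below for Tlr2.

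Among the surface receptors, Tlr1 and Tlr2, whose products form a dimer, stood in opposite directions. Tlr1 had 12.5, 10.7 and 4.85 FPKM in 5xFAD libraries, against 0.581, 2.36 and 3.06 FPKM in WT libraries. Each 5xFAD library thus lay above each WT library, and the lowest of the 6 was WT replicate 1. On counts this was 63.8, 54.9 and 24.8 in 5xFAD and 2.97, 12.1 and 15.6 in WT, a log2 fold change of 2.07 (SE 0.87; edgeR unadjusted p = 0.0246, adjusted p = 0.337).

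Tlr2 had 1.03, 5.83 and 3.30 FPKM in 5xFAD libraries, against 7.28, 6.53 and 7.13 FPKM in WT libraries. The WT values lay close together and all 5xFAD values lay below them, with replicate 1 the lowest. The log2 fold change was -1.27 (SE 0.79; edgeR unadjusted p = 0.121, adjusted p = 0.563). In 5xFAD libraries the level per length of Tlr1 averaged 9.37 ± 4.01 FPKM and that of Tlr2 3.38 ± 2.4 FPKM, whereas in WT libraries Tlr1 averaged 2.0 ± 1.28 FPKM and Tlr2 6.98 ± 0.398 FPKM (SD, n = 3 each). Tlr1 therefore lay above Tlr2 in each 5xFAD library and below it in each WT library. Tlr6, the other known partner of TLR2, was at most 0.601 FPKM in any library and was not tested.

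Tlr4 was weakly detected, at 0.872, 1.89 and 2.18 FPKM in 5xFAD libraries and at 0.124, 2.38 and 2.60 FPKM in WT libraries. The genotypes overlapped, and WT replicate 1 held 0.989 estimated counts. Its log2 fold change of -0.28 had an SE of 1.22 (edgeR adjusted p = 0.959), and limma on log2(FPKM + 1) put the difference at 0.11, on the other side of 0. Ly96, its lipopolysaccharide-binding partner, was listed at 0 in all 6 libraries. An exact 0 in this table can be a failed estimate: Ube2n, a ubiquitin-conjugating enzyme that cells use widely, was listed at 0 to 0.00332 FPKM. Cd14, which hands lipopolysaccharide to TLR4 and MD-2, stood at 13.4, 14.3 and 10.1 FPKM in 5xFAD libraries and at 12.9, 21.7 and 20.1 FPKM in WT libraries (log2 fold change -0.66, SE 0.61; edgeR adjusted p = 0.739).

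Cd180 and Ly86, the receptor homolog and its partner, followed Unc93b1 in level per length in 5xFAD libraries. Cd180 had 61.2, 24.2 and 16.4 FPKM in 5xFAD libraries, against 27.5, 10.7 and 7.67 FPKM in WT libraries. These FPKM ranges overlapped, since WT replicate 1 exceeded both 5xFAD replicates 2 and 3. In estimated counts they did not: 62.8, 115 and 66.1 in 5xFAD against 45.5, 44.2 and 27.0 in WT, and the ranges also stayed apart in CPM. The log2 fold change was 0.93 (SE 0.54; edgeR unadjusted p = 0.0945, adjusted p = 0.521).

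For Cd180, 1 count was worth a different FPKM in each library: 0.974, 0.210 and 0.248 FPKM in the 5xFAD libraries and 0.605, 0.241 and 0.284 FPKM in the WT libraries. For Tlr2, which has a single annotated transcript in GENCODE M21, it was worth 0.171 FPKM in each. GENCODE gives Cd180 5 transcripts of 430 to 2650 bases. The deposited locus of Cd180 (chr13:102693558-103334497) also holds Mast4, a kinase gene on the opposite strand, and the GENCODE models of Cd180 (chr13:102693558-102739629) and Mast4 (chr13:102732486-103334497) overlap. No source used here says if the counting was by strand, so the division of reads between them is uncertain. Mast4 and Cd180 added together gave a log2 fold change of 1.0 (SE 0.44; edgeR adjusted p = 0.380).

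Ly86 had 62.1, 19.0 and 16.4 FPKM in 5xFAD libraries, against 0, 4.62 and 15.6 FPKM in WT libraries. The genotypes did not overlap, but the lowest 5xFAD and the highest WT library were 16.4 and 15.6 FPKM, a gap much smaller than the spread within either genotype. In CPM they overlapped, at 38.4 in 5xFAD replicate 3 and 45.2 in WT replicate 3. Estimated counts were 108, 33.1 and 28.4 in 5xFAD and 0, 8.04 and 27.0 in WT, a log2 fold change of 2.16 (SE 0.95; edgeR unadjusted p = 0.0311, adjusted p = 0.359). Without WT replicate 3 the log2 fold change was 3.64 and the edgeR adjusted p = 0.0464, the one call of a member in any fit run. Without 5xFAD replicate 1 it was 1.05 (edgeR adjusted p = 0.998, the highest of its alternatives).

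Of the endosomal receptors, Tlr7 was separate between genotypes and Tlr9 was not. Tlr7 had 4.23, 4.73 and 6.74 FPKM in 5xFAD libraries, against 0.146, 2.67 and 0 FPKM in WT libraries. In estimated counts it had 29.9, 35.0 and 49.5 in 5xFAD and 0.989, 18.1 and 0 in WT, so 1 WT library held nearly all WT counts. The log2 fold change was 2.48 (SE 1.14; edgeR unadjusted p = 0.0387, adjusted p = 0.386). Without WT replicate 2 it was 5.82, and in the fits without 1 library at a time it was never under 1.79. Tlr7 lies on the X chromosome (chrX:167304929-167330558). The Y-linked gene Ddx3y had 76.8, 0 and 12.8 estimated counts in 5xFAD libraries and 57.3, 12.1 and 0 in WT libraries, so each genotype had 1 library without it. Tlr7 was at 35.0 counts in that 5xFAD library and at 0 in that WT library; the part of sex in Tlr7 was not tested.

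Tlr9 had 16.1, 4.61 and 7.04 FPKM in 5xFAD libraries, against 5.84, 6.67 and 7.07 FPKM in WT libraries. The 5xFAD libraries held both the highest and the lowest value, and the WT libraries lay between them. A log2 fold change of 0.46 resulted (SE 0.60; edgeR adjusted p = 0.831), and without 5xFAD replicate 1 it was -0.40.

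Unc93b1, the chaperone that both endosomal receptors need, had the highest mean FPKM of the members in both genotypes, although Ly86 and Cd180 lay above it in 5xFAD replicate 1. It had 46.4, 60.6 and 54.9 FPKM in 5xFAD libraries, against 52.2, 44.1 and 47.5 FPKM in WT libraries, which overlapped. Estimated counts were 172, 173 and 218 in 5xFAD and 141, 99.4 and 97.7 in WT, which did not overlap. The log2 fold change on counts was 0.63 (SE 0.37; edgeR unadjusted p = 0.104, adjusted p = 0.540), while the difference in log2(FPKM + 1) was 0.16. Here too 1 count was worth from 0.251 to 0.486 FPKM, lower in each 5xFAD library (0.270, 0.350 and 0.251) than in each WT library (0.370, 0.443 and 0.486).

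Among the 5 genes whose centred log2(FPKM + 1) profile over the 6 libraries was nearest to that of Unc93b1, by root mean square difference, were Rpl8 (0.092), Atxn2l (0.109), Smarca4 (0.111) and Eef1a1 (0.117). The Unc93b1 profile itself spanned 0.451.

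Myd88, the adaptor, had 2.16, 5.62 and 4.46 FPKM in 5xFAD libraries and 1.47, 6.23 and 0.845 FPKM in WT libraries. The highest value was in WT replicate 2 and the lowest in WT replicate 3, so the genotypes overlapped. Its log2 fold change of 0.25 had an SE of 1.20 (edgeR adjusted p = 0.966). The deposited locus of Myd88 holds 6 listed genes, so its share of reads is uncertain, and all 6 added together had a log2 fold change of 0.57 (SE 0.46; edgeR adjusted p = 0.689).

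**Figure D2:**
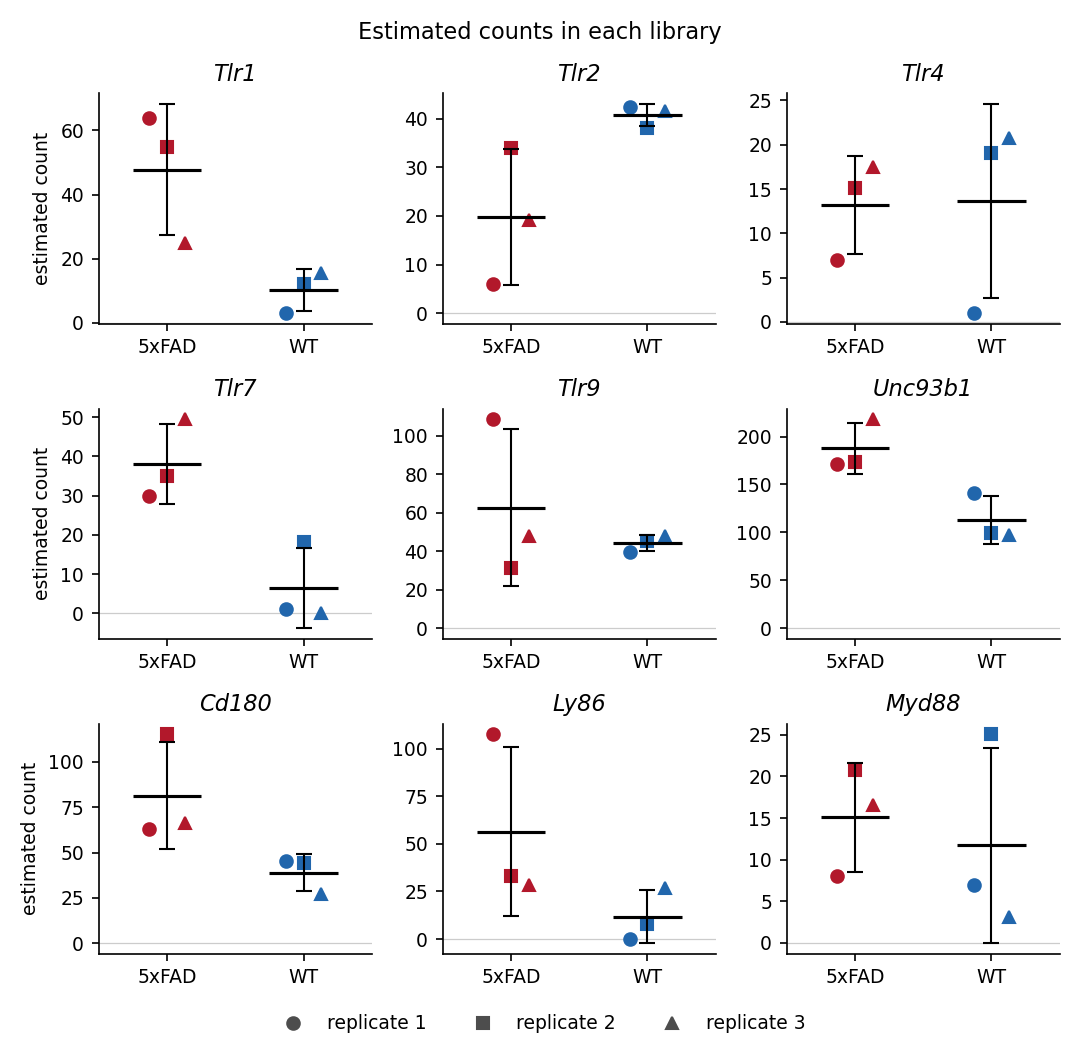
Estimated counts of the same 9 genes (vertical axes from 0, 1 scale per panel) in 5xFAD and WT libraries; symbols mark replicate numbers, and bars the mean and SD of 3 libraries. For Cd180 and Unc93b1 every 5xFAD library lies above every WT library in counts, which their FPKM values do not show.

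**Figure D3:**
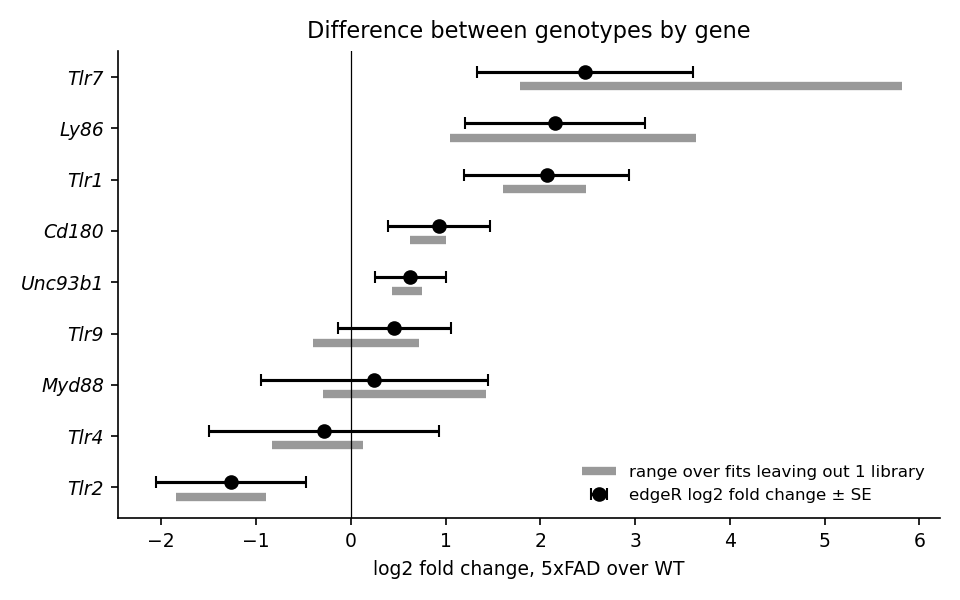
EdgeR log2 fold change of 5xFAD over WT for the 9 tested genes (points, with SE) and the range over 6 fits that each leave out 1 library (grey). The ranges of Tlr9, Myd88 and Tlr4 cross 0, and that of Tlr7 reaches 5.82.

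In order of mean FPKM in 5xFAD libraries the members were Unc93b1 (54.0), Cd180 (34.0), Ly86 (32.5), Tlr1 (9.37), Tlr9 (9.24), Tlr7 (5.23), Myd88 (4.08), Tlr2 (3.38) and Tlr4 (1.65). Only Ly86 and Tlr1 were neighbours whose ranges did not overlap. In WT libraries the order was Unc93b1 (47.9), Cd180 (15.3), Tlr2 (6.98), Ly86 (6.75), Tlr9 (6.53), Myd88 (2.85), Tlr1 (2.0), Tlr4 (1.70) and Tlr7 (0.939). There the ranges of Unc93b1 and Cd180, and of Cd180 and Tlr2, were apart, and all later neighbours overlapped.

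Markers of B cells differed between the genotypes alongside these genes. The 19 tested genes of a B cell identity list, led by Cd79a, each had a log2 fold change above 0 (beside 54.1% of all tested genes), and their summed level was 1040, 1073 and 613 FPKM in 5xFAD libraries, against 554, 451 and 546 FPKM in WT libraries. Set against this sum, the order of the genotypes was kept for Tlr1 and Tlr2 and lost for Tlr7 and Ly86. For Tlr2 this was fixed in advance, since in each 5xFAD library its FPKM was lower and the sum higher than in each WT library. The share of all tested genes without overlap in this measure was not computed. Tlr1 was at 1.20, 1.0 and 0.791 FPKM per 100 FPKM of B cell genes in 5xFAD libraries, against 0.105, 0.522 and 0.560 in WT libraries. Tlr2 was at 0.0985, 0.543 and 0.538 in 5xFAD libraries, against 1.32, 1.45 and 1.31 in WT libraries. Tlr7 reached 0.407 in 5xFAD replicate 1 and 0.591 in WT replicate 2, and Ly86 1.77 in 5xFAD replicate 2 and 2.86 in WT replicate 3, so both overlapped. Unc93b1 was at 4.46, 5.65 and 8.95 in 5xFAD libraries and at 9.44, 9.77 and 8.70 in WT libraries. The part of B cell content in the members' values was not tested.

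**Figure D4:**
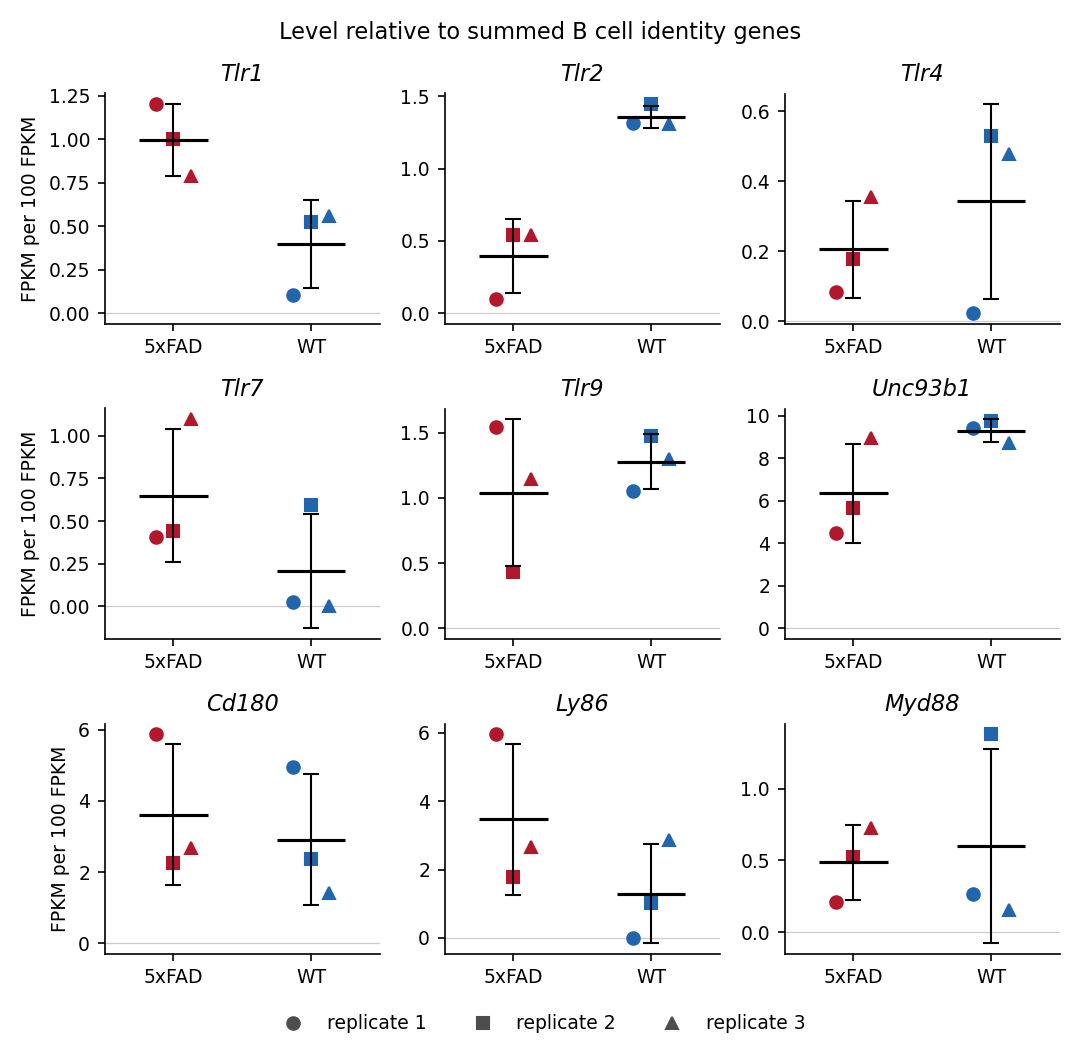
Level of 9 genes as FPKM per 100 FPKM of summed B cell identity genes (vertical axes from 0, 1 scale per panel) in 5xFAD and WT libraries; symbols mark replicate numbers, and bars the mean and SD of 3 libraries. Tlr1 and Tlr2 remain without overlap, in opposite directions. For Tlr2 this was fixed in advance by its lower FPKM and the higher B cell sum in each 5xFAD library.

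Cells other than B cells that carry these receptors were represented too. The 17 monocyte and macrophage genes summed to 384, 246 and 585 FPKM in 5xFAD libraries and 547, 462 and 318 FPKM in WT libraries, and none was at 0 in all 6 libraries. Their most abundant gene, the lysozyme gene Lyz2, was at 239, 160 and 444 FPKM in 5xFAD and at 313, 293 and 174 FPKM in WT. Chi3l3, a product of alternatively activated and alveolar macrophages, was picked from this list after its values were seen. It was at 54.8, 29.3 and 67.1 FPKM in 5xFAD, against 170, 112 and 78.9 FPKM in WT. Of all tested genes, 4.42% lay lower in 5xFAD without overlap in this way, whereas the list sum and Lyz2 overlapped. Of the 14 tested genes of this list, 7 had a log2 fold change above 0. Csf1r, a growth factor receptor that marks macrophages, was at 1.32 FPKM in 5xFAD replicate 2 and at or under 0.00404 FPKM in the other 5 libraries. Like those of Ube2n, such low values can be a failed estimate, so they do not show that Csf1r was absent. The 12 neutrophil genes summed to 369, 266 and 642 FPKM in 5xFAD and 575, 247 and 317 FPKM in WT, with S100a8 the most abundant and Ly6g at 0 throughout. The 8 dendritic cell genes summed to at most 21.8 FPKM in 5xFAD and 28.8 FPKM in WT. The 13 endothelial genes summed to 518, 464 and 426 FPKM in 5xFAD, against 533, 650 and 508 FPKM in WT, with Pecam1 the most abundant. Epithelial genes (6) summed to 225, 186 and 148 FPKM in 5xFAD and 172, 332 and 380 FPKM in WT. Fibroblast genes (5) summed to 118, 36.7 and 62.0 FPKM in 5xFAD and 24.9, 38.1 and 52.4 FPKM in WT. T and NK cell genes (12 in the table) summed to 22.2, 42.0 and 43.4 FPKM in 5xFAD and 24.7, 15.9 and 14.2 FPKM in WT. The part of these cells in the values of Tlr2 and the other members was not tested.

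Other genes of the pathway were read from a list of 56, of which 44 passed the expression filter. Again 0 were called at an adjusted p under 0.05. At an unadjusted p under 0.05, 3 were higher in 5xFAD and 0 lower, or 3 of 44 beside 8.46% of all tested genes, so their share was near the background. The median log2 fold change was 0.31 (beside 0.11 for all tested genes), with 31 of 44 above 0 (beside 54.1%). Without overlap, 2 were higher in 5xFAD in FPKM (beside 13.0% of all tested genes) and 7 in CPM (beside 12.4%), and 0 were lower in either (beside 4.42% and 5.88%). DESeq2 and limma likewise called 0 of them.

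The 3 genes at an unadjusted p under 0.05 lie below the receptors. Traf3, a ubiquitin ligase that joins TLR and TNF receptor family signalling, had 81.2, 6.21 and 4.54 FPKM in 5xFAD libraries, against 4.26, 2.78 and 1.06 FPKM in WT libraries (log2 fold change 1.66, SE 0.57; edgeR adjusted p = 0.290). In estimated counts it had 159, 73.8 and 62.4 in 5xFAD libraries and 38.6, 38.2 and 14.6 in WT libraries, and 1 count was worth 0.512 FPKM in the first of these 5xFAD libraries, with 0.110 FPKM the highest among the others. Without 5xFAD replicate 1, its highest library, the log2 fold change was 0.92. Map3k7, the kinase TAK1, had 28.2, 6.37 and 4.38 FPKM in 5xFAD libraries and 9.13, 1.18 and 3.68 FPKM in WT libraries, which overlapped (log2 fold change 1.72, SE 0.72; edgeR adjusted p = 0.337). It too was smaller without 5xFAD replicate 1, at 1.01. Ikbkb, a catalytic subunit of the IkB kinase, had 21.8, 40.5 and 21.1 FPKM in 5xFAD and 18.2, 12.9 and 26.7 FPKM in WT (log2 fold change 0.89, SE 0.41; edgeR adjusted p = 0.390).

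For the roles that follow, the 2 most abundant genes each overlapped between genotypes in FPKM. The counts of genes above 0 in each role stand beside 54.1% of all tested genes. Of 10 genes for receptor folding, trafficking and cleavage, 8 had a log2 fold change above 0; Ctss, a protease that cleaves endosomal receptors, averaged 91.3 ± 43.9 FPKM in 5xFAD and 57.2 ± 5.73 FPKM in WT, and the chaperone Hsp90b1 averaged 56.3 ± 18.8 FPKM in 5xFAD and 43.0 ± 26.7 FPKM in WT (SD, n = 3 each). The locus of Ctss holds 33 listed genes, so its reads are uncertain. Of 13 tested adaptors and kinases, 10 were above 0; Tab2, which links TRAF6 to TAK1, averaged 17.0 ± 1.41 FPKM in 5xFAD and 18.1 ± 13.1 FPKM in WT, and the kinase Irak1 averaged 18.6 ± 8.94 FPKM in 5xFAD and 12.0 ± 11.7 FPKM in WT. In the kinase and IRF arm 6 of 9 were above 0, with the transcription factor Irf3 at 24.2 ± 14.9 FPKM in 5xFAD and 16.6 ± 14.6 FPKM in WT. Of 6 tested inhibitors 2 were above 0, with the ubiquitin-editing enzyme Tnfaip3 at 22.3 ± 16.4 FPKM in 5xFAD and 17.9 ± 6.23 FPKM in WT and the inactive kinase Irak3 at 9.51 ± 4.11 FPKM in 5xFAD and 9.14 ± 2.49 FPKM in WT. All 3 tested early targets of NF-kB were above 0; the RNA-decay factor Zfp36 averaged 65.1 ± 9.55 FPKM in 5xFAD and 49.1 ± 10.5 FPKM in WT, and the inhibitor Nfkbia 30.9 ± 11.5 FPKM in 5xFAD and 26.0 ± 12.6 FPKM in WT.

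**Figure D5:**
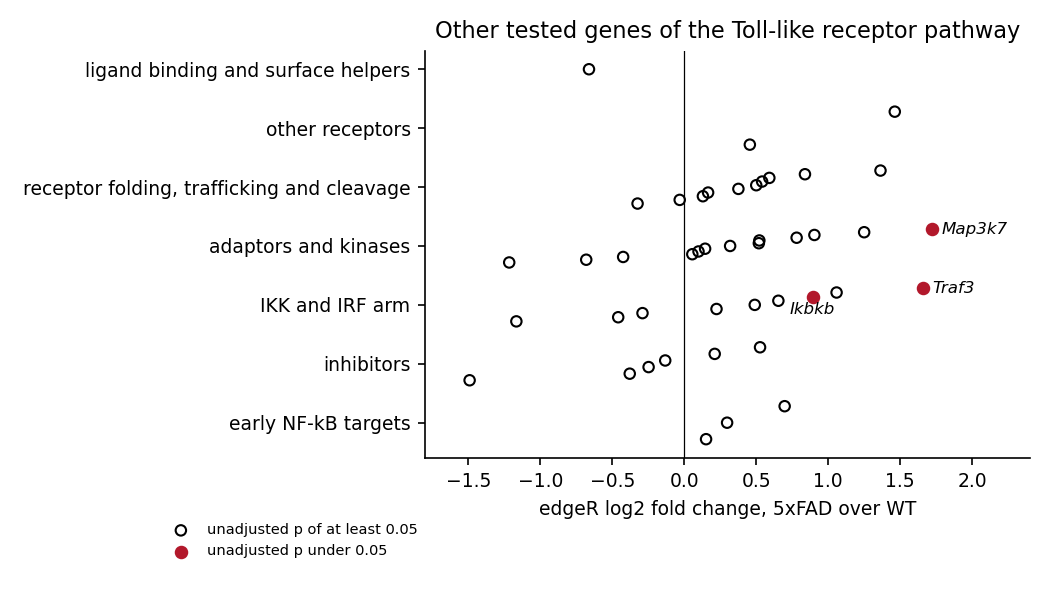
EdgeR log2 fold change of 5xFAD over WT (horizontal axis) for 44 tested pathway genes other than the members, by role; filled points have an unadjusted p under 0.05. The 3 filled points, Traf3, Map3k7 and Ikbkb, lie between 0.89 and 1.72.

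Among the other receptor genes, the highest mean over the 6 libraries was 2.11 FPKM, for Tlr13. Tlr13, a receptor for bacterial ribosomal RNA in mice, had 2.75, 2.97 and 1.96 FPKM in 5xFAD libraries and 0.248, 2.01 and 2.74 FPKM in WT libraries. Tlr8 was at 0.813, 1.23 and 0.747 FPKM in 5xFAD libraries, whereas in WT libraries it was at 8.59 FPKM (5.93 estimated counts) in replicate 1 and listed at 0 in the other two. Tlr5, the flagellin receptor, was listed at 0 in every 5xFAD library and stood at 3.98, 1.45 and 0 FPKM in WT libraries. In estimated counts the WT values were 24.7, 9.04 and 0. Tlr5 lay under the expression filter and was not tested. Tlr3, Tlr11 and Tlr12 did not exceed 1.46 FPKM in any library. Lbp, which carries lipopolysaccharide to CD14, was at 0.206, 0.788 and 0.189 FPKM in 5xFAD libraries and listed at 0 in all WT libraries; it lay under the expression filter and was not tested.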

How the data were processed

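RNA sequencing after ribosomal RNA depletion was done on 3 5xFAD and 3 WT samples of lung B cells. Tools named without roles in the submitters' processing notes are HISAT2 2.0.4, cutadapt 1.9.3, Cuffdiff and Cufflinks, with the builds mm10 and GRCm38; which annotation was used is not given in these sources. Per the file headers, the authors deposited FPKM values and counts for each sample and gene. The deposited counts were read as estimated counts, since many are not whole. A count of 0.917 recurred across genes in 5xFAD replicate 3, and 0.989 in WT replicate 1. The counts thus appear to have been scaled per library before deposit, and edgeR was run on these scaled values. Starts of loci were raised by 1.

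Rows sharing a symbol were summed (162 rows; 22564 rows became 22481 genes). Estimated counts were rounded and tested with edgeR 4.0.16 in R 4.3.3 (quasi-likelihood, TMM factors, trended dispersion, genotype as the only term) across 9651 genes that averaged 1 FPKM or more, with Benjamini-Hochberg adjustment. An SE is the size of the log2 fold change divided by the square root of F. DESeq2 1.42.0, limma 3.58.1 with pseudocounts of 1 and 0.1, other scalings, filters, summing by locus, a replicate block and leaving out each library were alternatives. The script was tested on simulated data. No pair of libraries agreed within sampling noise (chi-square per degree of freedom of at least 6.44). An exact permutation test of 3 against 3 samples cannot go below p = 0.1, so none was run on single values. The deposited counts summed to 628581 to 782297 per library, which need not be the raw depth. The biological coefficient of variation was 0.752.

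The members and all lists were chosen with earlier results of these data known. Named pathway genes were those at an unadjusted p under 0.05 and the 2 with the highest mean FPKM of each role. Tlr3, Tlr5, Tlr6, Tlr11, Tlr12, Ube2n, Tnf, Il6 and Socs1 were named outside this rule. Listed symbols absent from the table were looked up by gene identifier, which matched 4 of 7. Of the 5 genes nearest to Unc93b1 in profile, 1 is not reported here.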

Additional observations from a re-analysis of the deposited data

How the results depend on the processing

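The call of 0 pathway genes held in every alternative, and that of 0 members in all but 1, the fit without WT replicate 3 (0 to 1 over the fits without 1 library). The 11 calls over all genes became 7 with RLE factors, 27 with upper-quartile factors, 27 with totals without Lars2, 62 without the filter, 5 from a mean of 5 FPKM, 62 with DESeq2 (1129 adjusted p-values not given), 0 with limma at either pseudocount (1148 and 1118 genes at an unadjusted p under 0.05) and 6 when summed by locus. Without 5xFAD replicates 1, 2 and 3 they became 3, 18 and 27, and without WT replicates 1, 2 and 3 they became 67, 4 and 75. The number of tested members without overlap was 4 in FPKM (beside 17.4% of all tested genes) and 5 in CPM (beside 18.3%). It was 4 to 6 with 1 library left out, where ranges come apart more readily. Relative to B cell genes, an alternative chosen after seeing the data, it was 2, with Tlr2 fixed in advance. Shares over all tested genes were not computed for these last settings. The median difference of the members in log2(FPKM + 1) was 0.60. Of its alternatives, the lowest was 0.40 without WT replicate 3 and the highest 0.94 without WT replicate 2. The median member level of a library had a pooled SD within genotypes of 0.76. That SD exceeds the difference itself, so it cannot show whether the difference was stable.

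Signs were kept in all fits for Tlr1, Tlr2, Tlr7, Cd180, Ly86 and Unc93b1. For Tlr4 the log2 fold change turned positive with limma (0.11, and 0.52 with a pseudocount of 0.1), with the replicate block (0.27) and without WT replicate 3 (range -0.83 to 0.13). For Tlr9 it ran from -0.40 to 0.72 and for Myd88 from -0.29 to 1.42 over the fits without 1 library, negative for Myd88 also without 5xFAD replicate 2 (-0.05) and WT replicate 1 (-0.03). The cause was not tested.

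With the replicate number as a block 26 genes and 0 members were called; deviations of same-numbered libraries correlated at 0.009, 0.023 and -0.019, and 3 of 6 libraries correlated best with their own number, so the numbers name samples only. Tlr4, Tlr7 and Myd88 held 20 counts or fewer in several libraries, and so did Tlr1, Tlr2 and Ly86 in some. Tlr1 held at most 15.6 counts in any WT library. Depth limits what can be seen in all of these genes.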

Other observations

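Tnf, an early cytokine target of Toll-like receptor signalling that lay under the expression filter, was at 1.12, 1.06 and 3.42 FPKM in 5xFAD libraries and was listed at 0 in all WT libraries. Il6, another such target, was listed at 0 in all 6 libraries. Socs1, an inhibitor of cytokine and receptor signalling, was at 0.456, 0 and 1.25 FPKM in 5xFAD libraries and listed at 0 in all WT libraries. These genes were not tested, and they were named outside the rule for pathway genes. Tnf held 2.99, 2.84 and 9.17 estimated counts in 5xFAD libraries, so the values lie near the level of a few counts. Each WT library also held fewer counts outside Lars2 than each 5xFAD library. The 3 tested early targets of NF-kB, Nfkbia, Nfkbiz and Zfp36, each overlapped between genotypes in FPKM. The share of all genes under the filter with such a pattern was not computed.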
